A study of Homo sapiens with 3 samples.

Results

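YBX1 peaks that the authors annotated to L1 elements were described in both deposited ChIP-seq peak lists from HEL cells, an established cell line of human erythroleukaemia that carries mutated JAK2. A peak was taken when its repeat annotation gave the class LINE and the family L1, the element was not HAL1-2a_MD, and it lay on chromosomes 1 to 22. This gave 1130 of 22874 peaks in replicate 1 and 690 of 17285 in replicate 2, together 1820 of 40159. The cells were untreated, formaldehyde-crosslinked cultures, and each library is a YBX1 immunoprecipitation called against the same input library of sheared chromatin from the same line. Whether the replicates were separate cultures is not stated in the labels. The series asks where YBX1, a nucleic acid-binding protein with a cold-shock domain, is found along the chromatin of such cells. There was 1 condition and no mock immunoprecipitation, so no test over samples was possible: values are given for each replicate, and differences between kinds of peak are descriptions.

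L1 is the autonomous non-LTR retrotransposon family of mammals: a full-length copy carries an RNA-binding protein (ORF1) and a protein with endonuclease and reverse transcriptase activity (ORF2), and most copies are truncated and immobile. Names beginning L1PA and L1PB are primate lineages, with L1HS and the low L1PA numbers the youngest, and names beginning L1M are older mammalian lineages. HAL1 elements are relatives that carry ORF1 without ORF2. Young copies resemble each other closely, so a short tag from one can fit several places; the sources used here do not give how the authors placed such tags.

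The L1 annotation could not be checked against the sequence under the peaks, since no hg19 genome was used. Promoter sequence was at hand for 3 of the 4 genes whose promoter, in the authors' annotation, held an L1 peak in both lists. They are shown because the authors placed these L1 peaks at a gene's start. The sequences are RefSeq's for GRCh38.p14, matched by symbol, and run from 250 bases before the gene's start to 50 after it. Peak positions are in hg19 and these windows in GRCh38, and the 2 were not matched. The windows therefore may not hold the peaks, and motif counts describe the windows alone. Capitals mark CCAAT or ATTGG, the core of the Y-box that gave YBX1 its name, searched on both strands.
TAAR9: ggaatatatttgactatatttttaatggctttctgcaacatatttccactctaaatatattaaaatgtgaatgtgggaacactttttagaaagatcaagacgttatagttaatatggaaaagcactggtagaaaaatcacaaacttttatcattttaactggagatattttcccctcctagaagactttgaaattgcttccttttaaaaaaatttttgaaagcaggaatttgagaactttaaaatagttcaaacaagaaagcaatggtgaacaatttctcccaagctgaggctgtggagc
LINC01350: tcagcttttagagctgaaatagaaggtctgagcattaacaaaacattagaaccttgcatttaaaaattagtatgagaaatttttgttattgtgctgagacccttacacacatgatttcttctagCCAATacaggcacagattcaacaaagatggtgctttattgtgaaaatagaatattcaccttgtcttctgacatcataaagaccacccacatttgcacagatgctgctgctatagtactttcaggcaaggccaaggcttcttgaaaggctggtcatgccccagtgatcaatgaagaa
ELAC1: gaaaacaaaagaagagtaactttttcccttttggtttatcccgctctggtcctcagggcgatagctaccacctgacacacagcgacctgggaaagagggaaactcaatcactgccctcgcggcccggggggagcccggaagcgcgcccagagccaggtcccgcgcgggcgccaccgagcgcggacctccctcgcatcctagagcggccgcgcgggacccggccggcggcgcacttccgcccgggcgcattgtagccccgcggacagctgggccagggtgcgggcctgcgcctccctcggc
TAAR9, a trace amine-associated receptor gene (window chr6:132538027-132538326, plus strand), had a peak on an L1MC4 element with fold enrichments of 66.7 in replicate 1 and 81.6 in replicate 2, from 7 and 10 tags. LINC01350, a long non-coding RNA gene (window chr1:185628439-185628738, minus strand), had one on an L1ME5 element at 42.7 and 53.8, from 9 and 7 tags. ELAC1, which encodes a tRNA-processing ribonuclease (window chr18:50967790-50968089, plus strand), had one on an L1MC5 element at 50 and 41.4, from 7 and 5 tags. The fourth gene, LOC654342, had a peak on an L1PBa element at 14 and 29.9, from 6 and 7 tags. The Y-box core was present once in the LINC01350 window and absent from the other windows, while 34.6% of all 35116 RefSeq promoter windows of this length hold it. AGATAGAT or ATCTATCT, a pair of the tandem repeat unit that neighbours many L1 peaks, was in none of the 3 windows and in 0.393% of all.

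L1 peaks were a small and weak part of both lists. They made up 5.24% of autosomal peaks in replicate 1 (95% Wilson interval 4.95% to 5.55%) and 4.26% in replicate 2 (3.96% to 4.58%); such intervals cover counting error only. The libraries held 10010819 and 9926271 kept tags and the input 74780414, and L1 peaks took 9769 tags over 78476 bp in replicate 1 and 5614 tags over 46744 bp in replicate 2. A median L1 peak had 6 tags in either replicate, against 9 in all other autosomal peaks of either list. Peaks with 5 tags, the fewest listed, were 35.4% of L1 peaks and 21% of the others in replicate 1, and 38.4% and 21.2% in replicate 2. Other peaks outside tandem repeats were closer to L1, with medians of 7 and 6 tags and 31.9% and 34.1% of peaks at 5 tags. The median fold enrichment, which the authors' caller gave as summit tags over local background, was 43.9 for L1 peaks and 53.9 for all other peaks in replicate 1, and 42.2 and 54.4 in replicate 2. The other peaks outside tandem repeats had median folds of 43.3 and 40.8, close to those of L1 peaks. Fold enrichment of single L1 peaks ranged between 7.05 and 229 in replicate 1 and between 6.3 and 174 in replicate 2. Median widths were 59 bp and 58 bp; with the caller's d of 20 bp, such widths say nothing of how far binding extends.

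Older L1M elements carried most of these peaks. L1M names held 916 of 1130 in replicate 1 (81.1%) and 526 of 690 in replicate 2 (76.2%), a mean of 78.6% ± 3.42 (SD, n = 2). The primate names L1PA and L1PB held 179 and 133, a mean of 17.6% ± 2.43 (SD, n = 2). HAL1 held 27 and 21, a mean of 2.72% ± 0.463 (SD, n = 2), and other L1P names with L1HS held 8 and 10. These shares were not set against how much of the genome each subfamily covers, so neither preference nor avoidance was measured. Among L1M groups, L1ME had 277 and 164 peaks and L1MC 236 and 140, followed by L1MA with 138 and 67 and L1MB with 120 and 65; L1MD had 52 and 35. L1PB had 114 peaks in replicate 1 and 57 in replicate 2, whereas L1PA had 65 and 76.

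**Figure D1:**
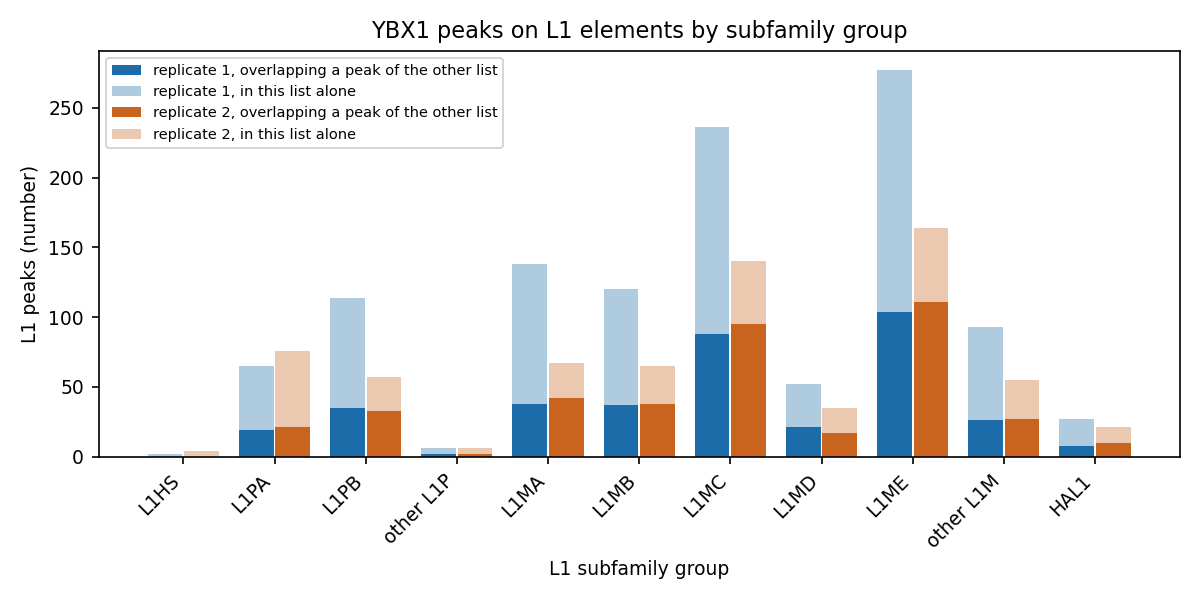
Number of L1 peaks (vertical axis) by subfamily group (horizontal axis) in replicate 1 (blue) and replicate 2 (orange), with the dark part of each bar counting peaks that overlap a peak of the other list and the pale part those in that list alone. L1ME (277 and 164 peaks) and L1MC (236 and 140) are the tallest, and L1PA (65 and 76) is higher in replicate 2.

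By element name, 101 names occurred in either list and 85 in both. The name with most peaks was L1MC4, with 83 in replicate 1 and 52 in replicate 2, followed by L1PB1 with 75 and 40 and L1MC4a with 60 and 36. L1M5 had 38 and 30, L1ME4a 37 and 24, L1MA9 39 and 19, and L1ME2z 33 and 22. L1MB3 had 37 and 15, L1ME1 27 and 16, and L1MC5 25 and 14. Across these names the median tag counts lay between 5.5 and 8, and the median fold enrichment was lowest for L1ME1 in replicate 2 at 38 and highest for L1MA9 in replicate 1 at 53.9.

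Overlap between the replicates was lower for L1 peaks than for the lists as a whole. In replicate 1, 378 of 1130 L1 peaks overlapped a replicate 2 peak by at least 1 bp (33.5%, 95% Wilson interval 30.8% to 36.3%), where all autosomal peaks stood at 53.8%. In replicate 2, 396 of 690 L1 peaks overlapped a replicate 1 peak (57.4%, 53.7% to 61%), where all stood at 77.5%. Other peaks outside tandem repeats were shared in 36.3% and 59% of cases, and tandem repeat peaks in 71.8% and 91.3%. Shared L1 peaks were the stronger ones, with a median of 9 tags in replicate 1 and 7 in replicate 2, against 6 and 5 for L1 peaks of a single list. Sharing reached 16% (replicate 1) and 35.5% (replicate 2) for L1 peaks with 5 tags, and 94.9% and 88% for L1 peaks with 21 to 50 tags. Weighted to the tag counts of L1 peaks, sharing was 32.5% and 56.3% for other peaks outside tandem repeats, and 47.9% and 82.8% for tandem repeat peaks. With this weighting L1 peaks lay within a few percentage points of other non-tandem peaks and below tandem repeat peaks. Within single ranges the gap to other non-tandem peaks could be wider, in either direction. In replicate 2 the shares were 92.6% (L1) and 80.7% at 11 to 15 tags, and 81.8% and 87.7% at 16 to 20. Since the 2 lists have their input in common, sharing does not by itself measure binding.

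**Figure D2:**
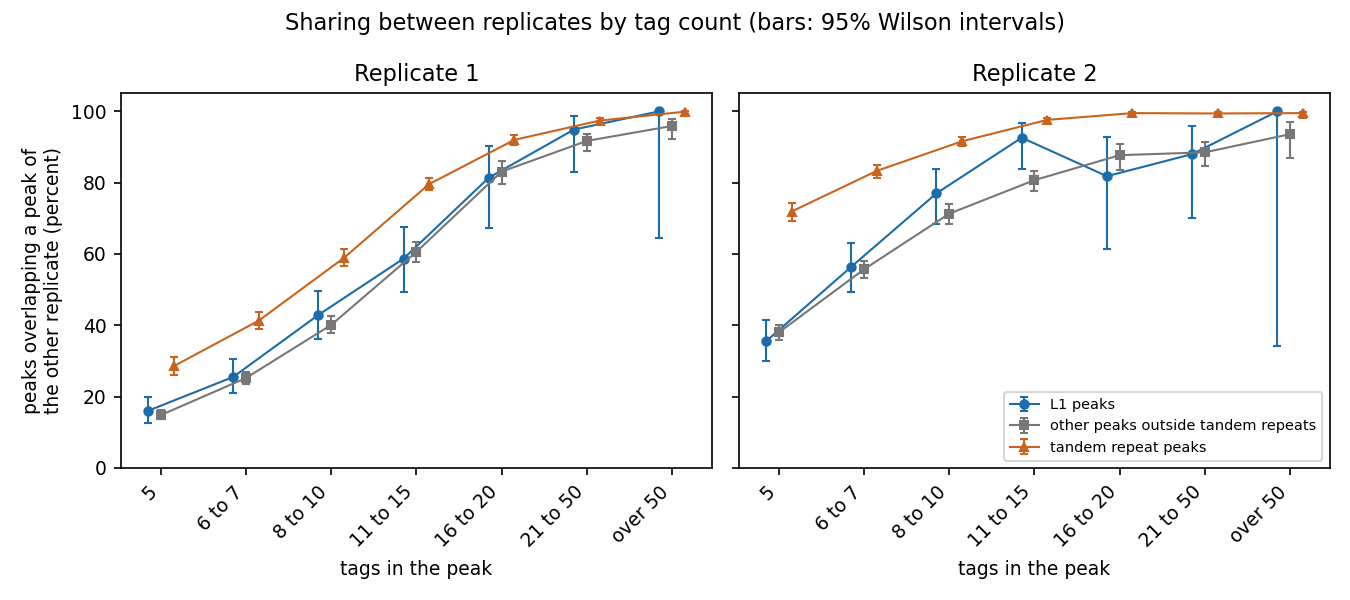
Percent of peaks that overlap a peak of the other replicate (vertical axis) by the number of tags in the peak (horizontal axis) for L1 peaks, other peaks outside tandem repeats and tandem repeat peaks, with 95% Wilson intervals, replicate 1 on the left and replicate 2 on the right. At 5 tags the L1 points stand at 16% and 35.5% and the tandem repeat points at 28.5% and 71.9%.

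Over all listed peaks, L1M peaks were shared more often than primate peaks in replicate 2, and the gap in replicate 1 was small. In replicate 1 the shares were 34.3% for L1M and 30.2% for L1PA with L1PB, and in replicate 2 they were 62.7% and 40.6%. The difference was 4.11 and 22.1 percentage points, a mean of 13.1 ± 12.7 (SD, n = 2), so the spread between replicates was about as large as the mean. Among peaks with a p-value of at most 1e-10 the difference was 6.22 points in replicate 1 and -4.48 in replicate 2, where L1M peaks were shared in 71.5% of cases and primate peaks in 76%. The direction in replicate 2 therefore turned with this threshold, at 158 L1M and 25 primate peaks. By tag count it did not turn: replicate 2 shares were 42.4% (L1M) and 18.3% (primate) at 5 tags, and 65% and 59.3% at 6 to 10. Over 10 tags they were 95.8% of 96 and 57.9% of 19, where 7 of the 19 were unshared L1PA5 peaks of the multicopy REXO1L array. In replicate 1 the shares in these ranges were 18.3% and 9.33%, 31.3% and 35.4%, and 72.3% and 76%. L1PB was shared in 30.7% and 57.9% of cases, and L1PA in 29.2% and 27.6%. The low L1PA share in replicate 2 was not general to primate names. In a split made after the values were seen, L1PA6 and higher numbers were shared in 36.5% of 52 and 56.8% of 37 cases. L1PA2 to L1PA5 had 0 shared peaks in either replicate. HAL1 peaks were shared in 8 of 27 cases in replicate 1 and 10 of 21 in replicate 2, that is 29.6% and 47.6%.

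The youngest elements had no shared peak. This grouping was chosen after the values were seen. L1HS and L1PA2 to L1PA5 held 15 peaks in replicate 1 and 43 in replicate 2, and 0 of either overlapped a peak of the other list; with a floor of 3 counts, such counts allow shares of up to 20% and 6.98%, and the upper Wilson limits are 20.4% and 8.2%. The youngest peaks had medians of 5 tags in both replicates, and 73.3% and 69.8% of them had 5 tags. L1PA6 and higher numbers held 52 and 37 peaks, of which 36.5% and 56.8% were shared, including L1PA8A with 5 of 10 in each replicate and L1PA7 with 3 of 7 and 4 of 8. Peaks with 5 tags were 46.2% and 32.4% of this older group. Sharing rose with tags, and the groups were not compared at equal tags. By name, L1PA3 had 2 peaks in replicate 1 and 14 in replicate 2, L1PA2 had 4 and 8, L1PA4 had 4 and 7, L1PA5 had 3 and 10, and L1HS had 2 and 4. Of the L1PA5 peaks, 1 in replicate 1 and 7 in replicate 2 lay in the multicopy REXO1L array of chromosome 8, where the replicate 2 peaks had 16 to 32 tags and fold enrichments of 6.3 to 8.73. Without that array the youngest elements still had 0 shared peaks, of 14 in replicate 1 and 36 in replicate 2. Whether placement of tags among near-identical copies has a part in this was not tested.

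A tandem repeat peak of the same list lay close to about every other L1 peak. Within 1000 bp in the same list there was one for 581 of 1130 L1 peaks in replicate 1 (51.4%, 95% Wilson interval 48.5% to 54.3%) and for 325 of 690 in replicate 2 (47.1%, 43.4% to 50.8%). Among all autosomal peaks outside tandem repeats the shares were 49.9% and 45.5%, so such neighbours were about as common for L1 as for non-tandem peaks in general. Counting tandem repeat peaks of either list, the shares were 61.2% and 59% for L1 peaks and 57.7% and 55.4% for other non-tandem peaks. Distances within a list fell into separate groups. The neighbour lay within 200 bp for 557 L1 peaks in replicate 1 and 313 in replicate 2. For 526 and 354 there was none of the same list within 10000 bp, and few lay between. Having none near does not place an L1 peak away from tandem repeats. Of such L1 peaks that were shared, 27.9% and 29.2% overlapped a tandem repeat peak but no L1 peak of the other list. Of shared L1 peaks with one near, 6.53% and 10.6% did. Where a neighbour was near, its median distance was 87 bp and 86 bp. It held more tags than the L1 peak in 95.7% and 94.8% of cases, with medians of 23 and 20 tags against 6 for the L1 peaks in either replicate.

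**Figure D3:**
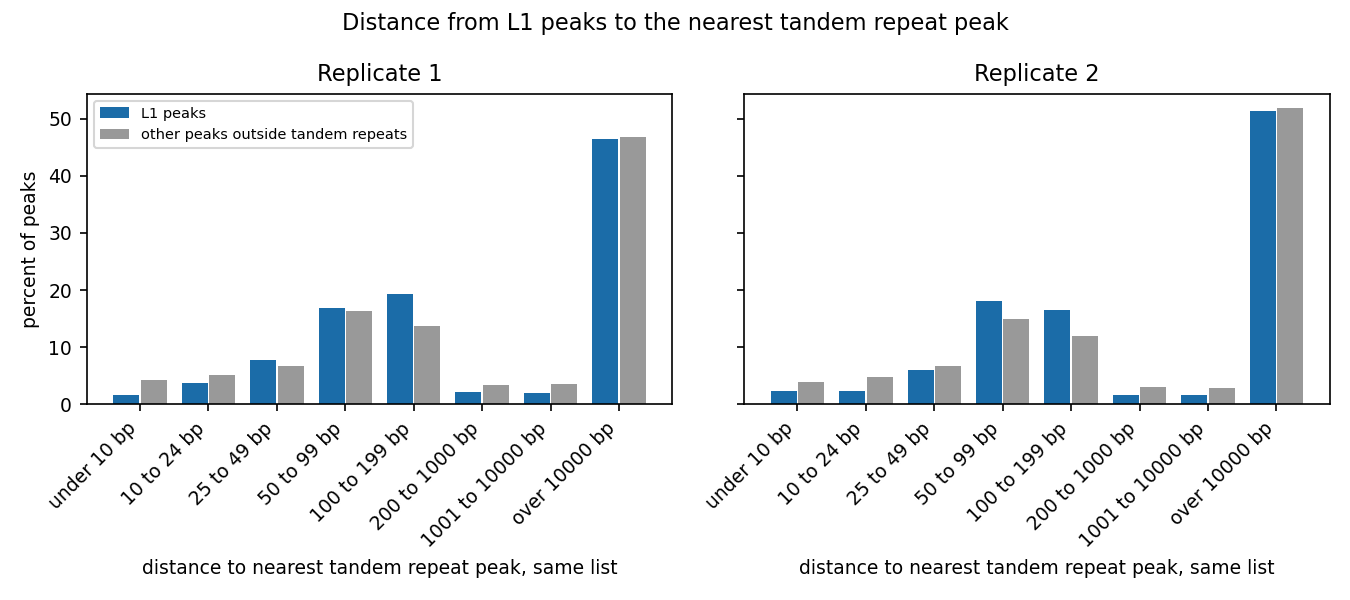
Percent of peaks (vertical axis) by distance in bp to the nearest tandem repeat peak of the same list (horizontal axis) for L1 peaks (blue) and other peaks outside tandem repeats (grey), replicate 1 on the left and replicate 2 on the right. L1 peaks within 200 bp (49.3% and 45.4%) and over 10000 bp (46.5% and 51.3%) make up nearly all of each panel.

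The neighbours of L1 peaks were mostly AGAT repeats, a unit that includes TCTA and TAGA. AGAT was the unit for 513 of 581 near neighbours in replicate 1 (88.3%, 95% Wilson interval 85.4% to 90.7%) and for 288 of 325 in replicate 2 (88.6%, 84.7% to 91.6%). The neighbours of other non-tandem peaks were AGAT repeats in 60.8% and 64.8% of cases, and all tandem repeat peaks in 43.8% and 46.6%. ATCC, the second unit, accounted for 8.78% and 8% of L1 neighbours, against 40.5% and 37.7% of all tandem repeat peaks. Peaks beside the same repeat are not independent of each other, and this difference was not tested over samples. Near neighbours were frequent for L1MC4 (57 of 83 and 29 of 52) and L1PB1 (46 of 75 and 23 of 40), and rare for L1MB3 (5 of 37 and 4 of 15) and L1ME1 (6 of 27 and 5 of 16). L1PA8A had 0 of 10 in each replicate. In replicate 2, L1 peaks with a near neighbour were shared in 67.1% of cases and those without in 48.8%; in replicate 1 the shares were 34.3% and 32.6%. Counting a neighbour in either list, the shares with and without one were 39.2% and 24.4% in replicate 1 and 69.8% and 39.6% in replicate 2. Other non-tandem peaks had 42.5% and 28%, and 72% and 42.9%. This gap is partly set by the definition, since overlapping a tandem repeat peak of the other list makes a peak both near and shared. Of L1 peaks with no near neighbour in their own list, 50 (replicate 1) and 52 (replicate 2) overlapped a tandem repeat peak but no L1 peak of the other. Nothing is read from the gap.

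The strongest L1 peaks often carried a tandem repeat label in the other list. Over all shared L1 peaks, 79.4% in replicate 1 and 75.5% in replicate 2 overlapped a peak with the same L1 element name, and 16.7% and 18.9% overlapped a tandem repeat peak but no L1 peak. Of shared L1 peaks with 5 to 10 tags, 9.79% and 13.1% met such a tandem repeat peak, whereas of those with over 20 tags 31.8% (95% Wilson interval 20% to 46.6%) and 45.8% (27.9% to 64.9%) did. Such shares were not taken for other non-tandem peaks, so the rise with tags is not read as particular to L1. Each peak carries a single label. The sites that follow are examples picked from the L1 peaks of highest fold after their values were seen. The second strongest L1 peak of replicate 1, near LINC01249 on chromosome 2 (4613517 to 4613813), was an L1MD3 peak of fold enrichment 213 with 79 tags and a TCTA repeat peak of 166 with 52 tags in replicate 2. Near CDH19, a cadherin gene, an L1MB8 peak of chromosome 18 (64364029 to 64364410) was the strongest of replicate 1, at 229 with 99 tags. In replicate 2 the strongest peak overlapping it was a TAGA repeat peak, at 177 with 61 tags. A weaker L1MB8 peak of replicate 2, at 54.4 with 8 tags, overlapped it too, so this site is not among the shares above. An intron of NMNAT3, which encodes a mitochondrial NAD-synthesising enzyme, held an L1MC4 peak in replicate 2 (chromosome 3, 139334187 to 139334331) at 167 with 30 tags, and in replicate 1 a TCTA repeat peak of 229 with 52 tags. Next to PTPN11, the gene of the phosphatase SHP2, the replicate 2 peak was labelled L1MC4 (chromosome 12, 112963142 to 112963414) at 113 with 45 tags, and the replicate 1 peak TCTA at 146 with 46 tags.

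Regions labelled L1 in both lists numbered 286, and all 286 carried the same element name in both. L1M names held 237 of them, L1PA with L1PB 41, HAL1 6 and other L1P names 2. A tandem repeat peak of either list lay within 1000 bp of 184 of these regions (64.3%), and of 4 of the 20 strongest, ranked by the lower fold enrichment. Nothing is read from this contrast, as strong sites labelled tandem repeat in 1 list are left out or rank lower here. Of shared L1 peaks with a fold of at least 100, 17 of 37 (replicate 1) and 13 of 26 (replicate 2) overlapped a tandem repeat peak but no L1 peak. Fold enrichment was at least 100 in both replicates for 5 regions, 4 on L1M elements and 1 on L1PB1. The first lay in an intron of EVA1C, the gene of a heparin-binding membrane protein, on an L1ME4a element of chromosome 21 (33848119 to 33848233), with 140 and 39 tags in replicate 1 and 128 and 32 tags in replicate 2. An intergenic L1ME1 region of chromosome 14 (83084315 to 83084446), with no gene named, stood at 121 and 122. An intron of ANKS1B, which encodes a scaffold protein of synapses, held an L1MC4a region of chromosome 12 (99763633 to 99763733) at 121 and 109, with a tandem repeat peak 21 bp away. DPY19L3, a C-mannosyltransferase gene, had an intronic L1MB7 region of chromosome 19 (32938727 to 32938946) at 107 and 108, 10 bp from a tandem repeat peak. The next L1M region, near LRRC3B on an L1MA9 element of chromosome 3 (26584988 to 26585098), had 175 in replicate 1 and 95.2 in replicate 2.

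Among primate and HAL1 regions 1 reached 100 in both replicates. SUPT3H, which encodes a subunit of the SAGA transcription coactivator, held an intronic L1PB1 region of chromosome 6 (45283663 to 45283782) at 152 and 103, from 23 and 20 tags. L1PA8A elements followed between genes on chromosome 3 (114973697 to 114973758, 75.5 and 101) and near LINC00351 on chromosome 13 (85841165 to 85841243, 67.4 and 68). An intergenic L1PB1 region of chromosome 4 (83085442 to 83085534) stood at 80.9 and 68. The fifth, on an L1PA7 element in an intron of PKIB, a protein kinase A inhibitor gene (chromosome 6, 122955202 to 122955361), had 65.1 and 65.6. Among HAL1 regions the strongest was a HAL1-3A_ME element near DICER1, the gene of the microRNA-processing nuclease, on chromosome 14 (95516265 to 95516317), with 67.4 and 81.6 from 7 tags in each replicate. Another HAL1-3A_ME region lay near C9orf106 (53.9 and 54.4), HAL1b near SMIM20 (69 and 47.1), and HAL1 in an intron of GABRG1, a GABA receptor subunit gene (106 and 39.9), and near UFL1 and FHL5 (23.2 and 33.9). An L1P4 region in an intron of CNTN5, a contactin gene, had 67.4 and 54.4.

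Over the 286 regions, log2 fold enrichment in replicate 1 and replicate 2 had a Pearson r of 0.571 and a Spearman rho of 0.527, given as a description since both lists share the input and were cut at the same threshold. The median absolute difference was 0.402 on the log2 scale. For the 102 regions with no tandem repeat peak near in either list r was 0.695, and for the 184 with one near it was 0.45. For the 54 at the genome-wide background in both lists, where the local input does not enter, r was 0.371. Folds of these 54 can only be multiples of 1 step in each list, so this r is not set against the others.

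**Figure D4:**
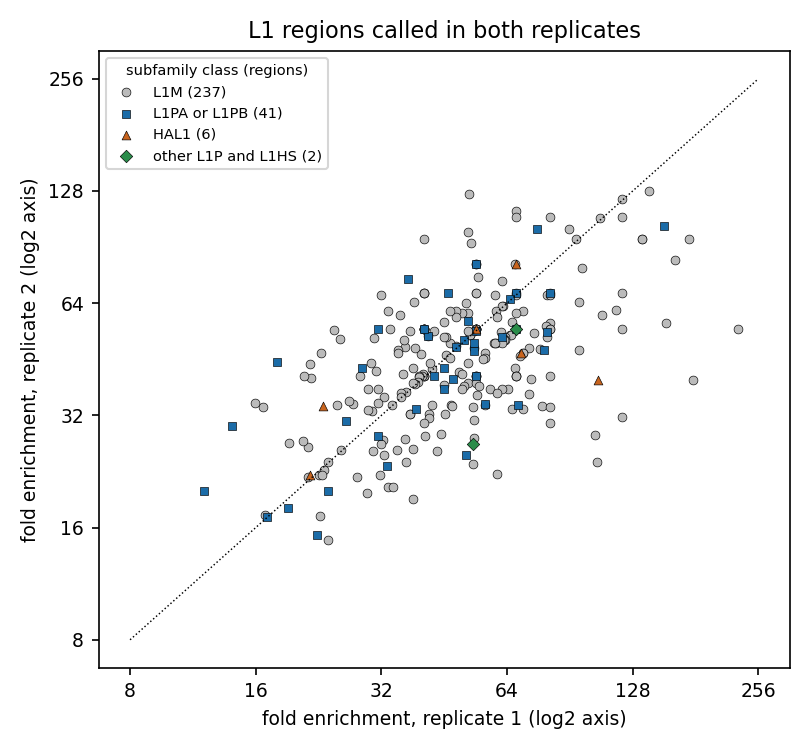
Fold enrichment in replicate 2 (vertical, log2 axis) against replicate 1 (horizontal, log2 axis) for the 286 regions labelled L1 in both lists, 1 point a region, coloured by subfamily class, with the dotted line at equal values. The 41 L1PA and L1PB and 6 HAL1 regions lie among the 237 L1M regions, and 5 regions reach 100 in both replicates.

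Fold enrichment of L1 peaks depended on the chromosome. Chromosome 21 had L1 medians of 25.4 (replicate 1) and 28.4 (replicate 2), and on chromosome 9 up to position 40000000 it was 20.8 and 20.1, from 37 and 23 L1 peaks. On the rest of chromosome 9 it was 53.9 and 54.4. Tags did not follow: L1 peaks on that first part of chromosome 9 had medians of 9 and 10 tags, and on the rest 5.5 and 5. The fold is taken over the local input where that exceeds the genome-wide level, and over the genome-wide level elsewhere. On chromosome 21, 0 of the 43 and 33 L1 peaks had a fold at the genome-wide background. On the first part of chromosome 9 it was 2 of 37 and 1 of 23, against 18 of 22 and 9 of 13 on the rest of chromosome 9. Over all autosomes 26.5% and 26.4% of L1 peaks were at that level, where all peaks stood at 36.1% and 34.4% and other peaks outside tandem repeats at 27.6% and 24.5%. Other peaks had medians of 31.1 and 30.9 on chromosome 21, and 24.3 and 25.2 on the first part of chromosome 9. Chromosome 8 also had few L1 peaks at the genome-wide background (2.3% and 1.43%), with median folds of 38.2 and 33.7. The copy number of these segments in the cells was not measured here, and its part in the folds was not tested. JAK2 lies on that first part of chromosome 9 and had 1 intronic L1 peak, on an L1ME3 element in replicate 1 alone (5059208 to 5059277, 12 tags, fold enrichment 18.2).

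**Figure D5:**
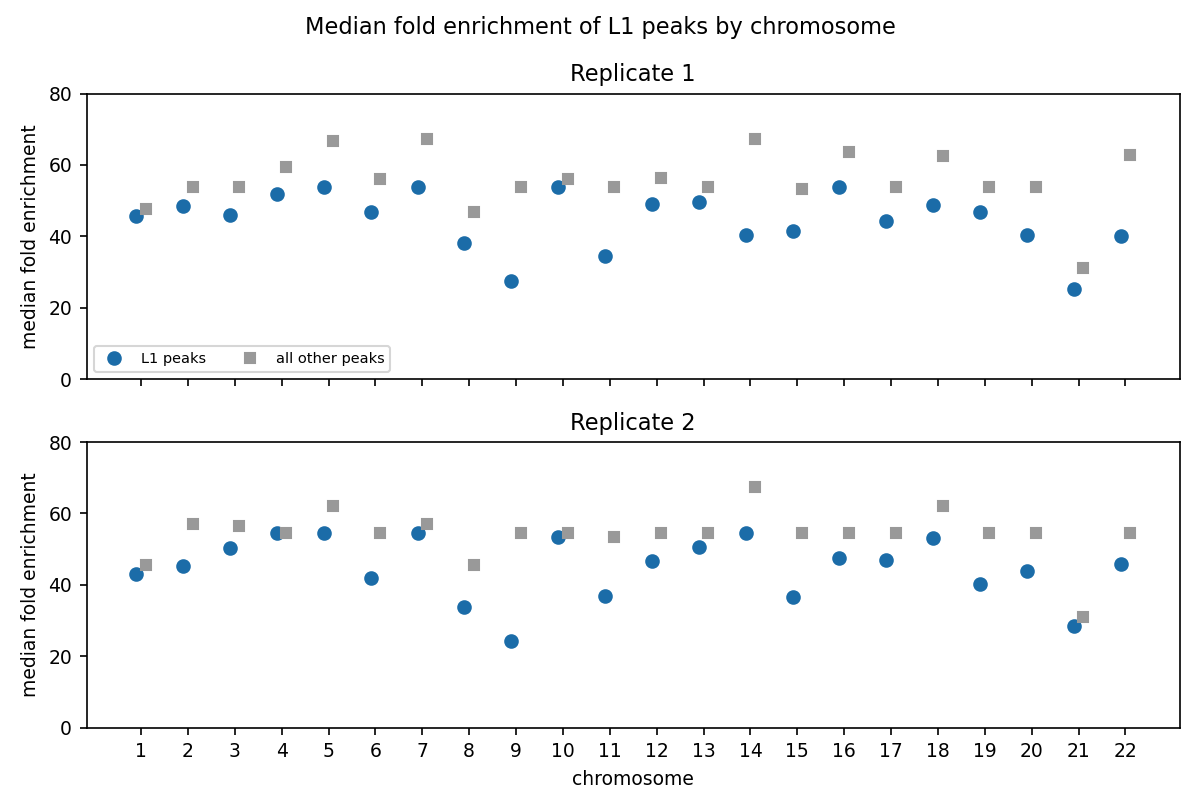
Median fold enrichment (vertical axis) of L1 peaks (blue) and of all other peaks (grey) on each autosome (horizontal axis), replicate 1 above and replicate 2 below. L1 medians are lowest on chromosomes 9 (27.5 and 24.3) and 21 (25.4 and 28.4), and on chromosome 21 other peaks are low as well.

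As a share of a chromosome's own peaks, L1 peaks ranged between 1.68% on chromosome 22 and 9.57% on chromosome 18 in replicate 1, and between 1.02% on chromosome 22 and 7.25% on chromosome 3 in replicate 2. On chromosomes 14, 16, 17, 20 and 22 the share was 3.1% or less in both lists. The density of L1 elements along each chromosome was not taken into account.

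Most L1 peaks lay between genes. Intergenic sequence held 65.1% of them in replicate 1 (95% Wilson interval 62.3% to 67.9%) and 63.2% in replicate 2 (59.5% to 66.7%), against 57% and 57.7% of all other peaks. Introns held 33.9% and 35.1%, promoters 0.885% and 1.59% (3.46% and 3.53% of all other peaks), and exons 1 peak in each list. L1 peaks lay in the promoter, exons or introns of 402 of the 3665 genes that had any peak there, or 11%. Of the 402, 131 had one in both lists, not always at the same site. EVA1C had 3 regions labelled L1 in both lists, within the same stretch of chromosome 21; beside the one above, fold enrichments were 37.4 and 32.3, and 38 and 19.1. Genes with 2 such regions were BNC2, CAMTA1, CNTNAP2, LINC01314, LOC101926964 and PTPRD, and 99 genes had 1.

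Of long neuronal genes, whose introns are large, 13 of 39 carried L1 peaks, and 9 had them in both replicates. The peaks of the replicates were not always at the same site, and in CTNNA3 none was shared. The 13 genes were 35.1% of the 37 with any peak, where all genes with any peak stood at 11%. The list was drawn up with earlier results of these data known and gene length was not taken into account, so nothing is read from the difference. CNTNAP2, a neurexin-family adhesion gene, held an L1MC4a region at 80.9 in replicate 1 and 54.4 in replicate 2 and an L1PB2 region at 53.9 and 40.8. PTPRD, a receptor tyrosine phosphatase gene, held an L1MB8 region at 22.8 and 17.2, from 10 tags in each. OPCML, a neuronal adhesion gene, had an L1ME5 peak of 24 tags in replicate 1 at 78.2, 1 bp from a tandem repeat peak. MACROD2, an ADP-ribosylhydrolase gene, had an L1M4c region at 40.5 and 68.

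The signalling, blood and splicing lists held few L1 peaks, all at 5 to 12 tags. Of MAPK-ERK and MNK genes 2 of 34 had one: NF1, the RAS GTPase-activating neurofibromin, with an L1MB2 region in both lists (35 with 5 tags and 47.1 with 6), and SPRED1, an inhibitor of RAS-RAF signalling, in replicate 1 alone (27.3 with 6 tags). Of JAK-STAT genes 1 of 27 had one, JAK2. Of haematopoietic transcription factors 1 of 21 had one, ERG, with 1 peak in replicate 1 and 2 in replicate 2, each of 5 tags and none shared. Of splicing factors 1 of 28 had one, MBNL2 (48.2 with 5 tags, replicate 1 alone). The count was 0 of 8 for genes with a Y-box or cold-shock domain and 0 of 27 for genes of L1 restriction and retrotransposition, of which 2 and 5 had any peak. Of all genes with any peak in them 11% had an L1 peak, and these lists held 1 of 6 (JAK-STAT), 2 of 9 (MAPK-ERK and MNK), 1 of 6 (transcription factors) and 1 of 7 (splicing), too few to set against it. MKNK1, MAPK3 and YBX1 had 0 L1 peaks in their promoter, exons or introns in either list, which does not show that YBX1 is absent there, as listed peaks hold at least 5 tags.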

How the data were processed

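YBX1 ChIP-seq peaks were taken from the deposited lists of 2 replicates from HEL cells. Reads were handled with Bowtie2, Trimmomatic 0.36, bcl2fastq 02.14.01.07 and MACS 1.4, on hg19, per the submitters' processing notes. Each replicate had its own peak call by MACS 1.4.2 against 1 input library, with a p-value cutoff of 1e-05, 1 tag kept per position and a fragment shift of 20 bp for tags of 36 bp, per the file headers. The lists had then been filtered and annotated by the authors by a rule not given in the sources used here. The name of the replicate 2 alignment in its header has a number that differs from the label, and the label was kept.

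The deposited tag count is the number of ChIP tags in a peak. Each peak's score, as deposited, is its p-value as a negative log10 multiplied by 10, as read from the values. Fold enrichment is the authors' ratio to local background, taken as the largest among the genome-wide level and the input in windows of 1000 bp and 10000 bp. The authors' false discovery rate, in percent, was 0 for all peaks. Coordinates are hg19 and count from 1.

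Of the L1 peaks, 22 and 10 on X, 6 and 7 on Y and 0 and 4 on alternative contigs were left out, as were 774 and 576 HAL1-2a_MD peaks. Peaks were shared at an overlap of at least 1 bp. Overlapping L1 peaks of both lists were merged into regions whose values come from the strongest peak of each list. A peak was at the genome-wide background when its fold was within 0.006 of a multiple of the genome-wide step. This step rounds to 13.5 in replicate 1 and 13.6 in replicate 2, and was used unrounded. Sharing at L1 tag counts weights the other group's shares in 7 ranges of tags by the L1 peaks in each. Shares carry 95% Wilson intervals. Regions named are the 5 strongest of each class by the lower fold, and elements the 10 with most peaks. Genes are those with most regions (ties included) and the members of 7 lists. Sites where the strongest overlapping peak of the other list had a tandem repeat label were picked as examples after their values were seen. The members and lists were chosen with earlier results of these data known. Functions were checked on simulated peaks. Gene names came from the lists and, for older symbols, from a RefSeq table of GRCh38. Python 3.11.15, pandas 2.3.3, numpy 2.4.6, scipy 1.17.1 and statsmodels 0.14.6 were used.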

Additional observations from a re-analysis of the deposited data

How the results depend on the processing

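With p limited to 1e-10 or less in both lists, L1 peaks numbered 341 in replicate 1 and 188 in replicate 2. They were shared in 37% and 71.8% of cases and had median fold enrichments of 62.1 and 60.8. The mean share of L1 peaks over replicates was then 14.3% for L1PA with L1PB and 82.3% for L1M. Leaving out L1 peaks near a tandem repeat peak left 549 and 365, with 48.8% of the replicate 2 peaks shared; L1PA with L1PB then held 14.9% in replicate 1 and 25.2% in replicate 2, a mean of 20.1%. With an overlap of 50% of the shorter peak the shared percents were 29 and 50.3, and with an L1 peak required in the other list 26.5 and 43.3. L1 peaks at the genome-wide background had median folds of 53.9 and 54.4. Leaving out each replicate gave 15.8% to 19.3% for L1PA with L1PB, 76.2% to 81.1% for L1M, 2.39% to 3.04% for HAL1, and 4.11 to 22.1 points for the L1M difference in sharing. The mean difference was 0.868 points at the stricter p-value, from 6.22 in replicate 1 and -4.48 in replicate 2, 20.1 points against L1PA alone and 4.21 against L1PB alone; these last, and leaving out the REXO1L array or chromosomes 9 and 21, were chosen after seeing the data. The cause of these changes was not tested. Keeping chromosome X gave 1152 and 700 L1 peaks, merging peaks within 500 bp gave 921 and 617, and a primate class with all L1P names and L1HS held 18.6%. No paired analysis was possible because the 2 immunoprecipitations are replicates of 1 group and the input has no peak list. Few tags limit all of this: the median L1 peak held 6.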

Other observations

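The L1 peaks of highest fold enrichment that were found in a single list had 5 to 13 tags. In replicate 1 they were a HAL1-3A_ME peak near MALRD1 on chromosome 10 (19290825 to 19290900, fold enrichment 135 from 13 tags) and an L1ME2z peak in an intron of LRRC2 on chromosome 3 (46565360 to 46565420, 108 from 12 tags). In replicate 2 they were an L1MCb peak in an intron of NCR3LG1, the gene of the natural killer cell ligand B7-H6, on chromosome 11 (17386467 to 17386502, 68 from 5 tags), and an L1P5 peak with no gene named on chromosome 3 (84049992 to 84050047, 68 from 7 tags). The exon peaks lay on an L1MC4 element of LINC01494 in replicate 1 (80.9 from 19 tags) and on an L1ME4a element of SPATA6L in replicate 2 (24 from 11 tags). Promoter L1 peaks of a single list, given here as examples chosen after their values were seen, included ABCA6, an ABC transporter gene (67.4 from 9 tags, replicate 1), FFAR3, a receptor for short-chain fatty acids (40.5 from 5 tags, replicate 1), and DNMT3L, a cofactor of DNA methyltransferases in germ cells (32.5 from 6 tags, replicate 2).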
